A study of Caligus rogercresseyi with 6 samples.

Results

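The transcripts of eggs were compared with those of adult females in the sea louse Caligus rogercresseyi, a parasitic copepod of farmed salmon. The comparison covered the contigs, assembled stretches of transcript, that had 50 or more counts in the egg library or in the adult female library. There were 22631 such contigs among the 44089 contigs of the files. Of the rest, 6854 were counted in egg or female below that limit and 14604 in neither.

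The series measured RNA by sequencing in whole wild-type animals, with 1 pooled library for each stage or sex. The egg library came from whole eggs and the female library from whole adults labelled female. The egg library held 120674263 counts and the female library 149426248, and copepodid (the free-swimming infective larva), chalimus (the larva attached to the host) and adult male libraries held 78380827 to 130218357. A sixth file, adults of unstated sex, has a total that differs from female plus male by 0 counts and was taken as the same data. It entered the computation of scaling factors with the other files and otherwise served only to check how reads were assigned. Its count lay within 1% or 3 counts of female plus male for 63.0% of the contigs compared, so for the others the assignment of reads to contigs moved more than that between counts of the same data. The labels do not say how many animals were pooled, how old the eggs were, or whether the females carried egg strings. Egg and ovary material inside or on the females therefore cannot be told apart from the rest of the female in these libraries. Each group being a single pool, no difference could be tested or checked against replicates, and p-values are not given.

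In copepods, the ovary produces eggs that are stocked with yolk and with maternal RNA before they are laid, and the early embryo lives on both. Adult female sea lice carry the fertilised eggs in paired strings outside the body. The eggs hatch into larvae that live on yolk until the copepodid finds a host, whereas adult females feed on the skin, mucus and blood of the fish. The files give a GenBank identifier for each contig and do not pair it with a gene name. No function is therefore assigned to any contig, and marker genes of egg or adult could not be used to check the labels.

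Levels are given as CPM (counts-per-million of the library total) when 1 contig is followed across libraries, and as the authors' FPKM, which corrects for contig length, when contigs are compared with each other. Folds between egg and female rest on counts scaled by trimmed mean of M-values (TMM) factors. CPM are not corrected by these factors, which for the 5 libraries ran from 0.668 in copepodid to 1.31 in egg. Comparisons across libraries in CPM therefore differ from those on TMM-scaled counts. To be called higher or lower in egg, a contig needed a difference of at least 4-fold and 50 or more counts in the higher library. An abundant contig is one at 100 CPM or more, and a female contig is held by egg when its egg level is above the female level or less than 4-fold below it. Ratios of libraries that both have counts carry a 95% exact (Clopper-Pearson) interval. No molecular tags are described in the labels, and that interval covers counting error and nothing else.

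Most contigs lay less than 4-fold apart in eggs and females. Of the 22631 contigs, 14986 (66.2%) lay within 4-fold, 4593 (20.3%) were higher in egg and 3052 (13.5%) were lower in egg. The 14986 contigs within 4-fold held 82.0% of the egg counts and 64.3% of the female counts. The 4593 contigs higher in egg held 16.3% of the egg counts and 1.42% of the female counts. The 3052 contigs lower in egg held 1.61% of the egg counts and 34.3% of the female counts. Contigs higher in egg were thus more numerous, while contigs lower in egg took the larger share of a library. With a 2-fold limit 32.0% were higher and 27.8% lower in egg, and with an 8-fold limit 12.3% and 7.87%. Most contigs thus lay within a 4-fold or 8-fold limit, but not within a 2-fold limit. The median log2 ratio of egg to female over all 22631 contigs was -0.02 after TMM scaling, against 0.26 for total counts and -0.15 for DESeq2 size factors.

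**Figure D1:**
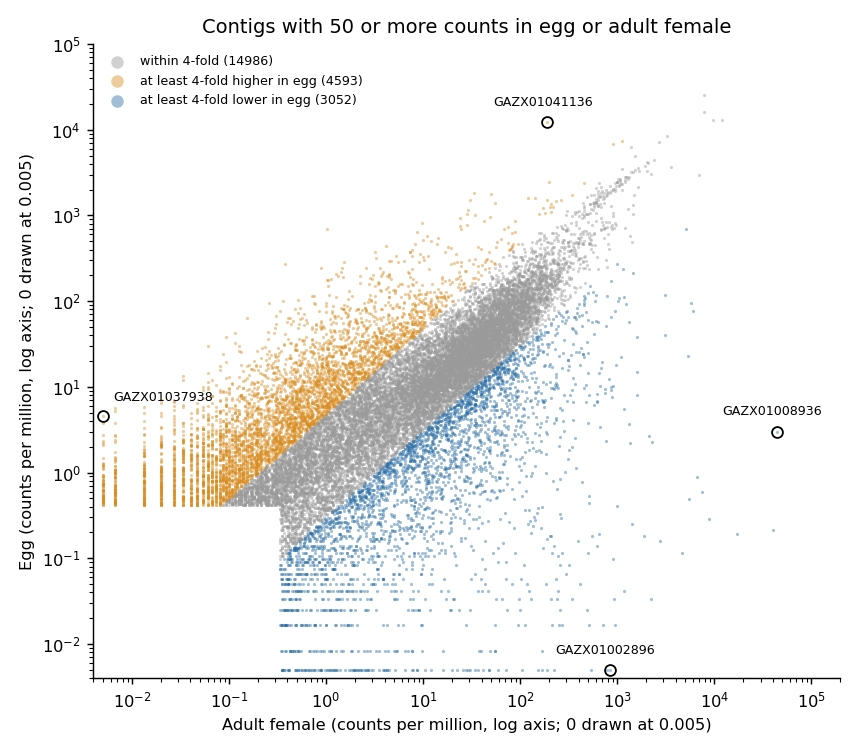
Level of each of the 22631 contigs in adult female (x axis) and egg (y axis), in CPM on log axes, with 1 point per contig and 0 counts drawn at 0.005. Contigs within 4-fold are grey, the 4593 higher in egg are orange and the 3052 lower in egg are blue; the blue cloud reaches 0 egg counts at far higher levels than the orange cloud reaches 0 female counts.

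Eggs held most of the abundant female contigs. At 100 CPM or more there were 1702 female contigs, and 1318 of them (77.4%) were held by egg, including 18 that were at least 4-fold higher in egg. The other 384 (22.6%) were at least 4-fold lower in egg, beside a background of 13.5% over all contigs compared. Choosing contigs at a high female level favours those lower in egg. Among female contigs at 1 to under 10 CPM 15.9% were lower in egg, and at 10 to under 100 CPM 15.4%. Held contigs made up 38.8% of the female counts and 58.8% of the egg counts. Their log2 ratio of egg to female had a median of -0.38, with a 5th to 95th percentile of -1.63 to 1.20, and 436 of the 1318 were above the female level in egg.

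Few of the held contigs were low in male. All 5 libraries had 100 CPM or more for 416 of the 1318. The share of counts that those 416 contigs took was 44.0% in egg, 55.3% in copepodid, 32.8% in chalimus, 23.7% in female and 28.9% in male. Under 1 CPM in male were 11 of the 1318 held contigs (0.835%), beside 5.58% of the 1702 and 29.2% of all contigs compared. Together the 11 took 1.84% of the counts in egg and 0.945% in female, with medians of 200 CPM in egg and 145 CPM in female. Single contigs weighed heavily in these shares. GAZX01041136, which was 53.1-fold higher in egg, had 12293 CPM in egg, and GAZX01022905 had 7050 CPM in female. In copepodid the highest of the 11 stood at 38.7 CPM. On TMM-scaled counts the highest of the 5 libraries was female for 603 of the 1318 held contigs (45.8%). It was copepodid for 356, male for 172, egg for 153 and chalimus for 34. Over all contigs compared, the highest was female for 29.5%, egg for 21.3%, copepodid for 20.2%, male for 19.3% and chalimus for 9.65%. The held contigs were chosen at 100 CPM or more in female, which favours female as the highest library.

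The 6 held contigs with the most female counts show both patterns. GAZX01030310 (2990 nt) had 12944 CPM in egg, 13537 in copepodid, 16668 in chalimus, 12158 in female and 8918 in male. Its egg level was 0.877 of the female level (interval 0.875 to 0.879) with TMM. GAZX01030312 (4014 nt) had 12945 CPM in egg, 15811 in copepodid, 10988 in chalimus, 9820 in female and 6872 in male. The highest library exceeded the lowest 1.87-fold for the first and 2.30-fold for the second in CPM, and both spreads were wider on TMM-scaled counts. Whether egg or female was the higher for either depended on the scaling.

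GAZX01041366 (6139 nt) and GAZX01041365 (2576 nt), which have consecutive identifiers, were both above the female level in egg. GAZX01041366 stood at 25213 CPM in egg, 62135 in copepodid, 12222 in chalimus, 7899 in female and 12410 in male. Its egg level was 2.63-fold the female level (interval 2.62 to 2.63). GAZX01041365 stood at 15925 CPM in egg, 69000 in copepodid, 11216 in chalimus, 7877 in female and 12007 in male, and was 1.66-fold higher in egg than in female (1.66 to 1.67). Female was the lowest of the 5 libraries for both in CPM.

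GAZX01022905 (917 nt) was the exception among the 6. It had 2941 CPM in egg and 7050 CPM in female, but 858 CPM in chalimus, 38.7 CPM in copepodid and 60 counts (0.461 CPM) in male. Its female level was 2.91-fold its egg level (interval 2.90 to 2.92), so it passed as held. Per length it ranked 3rd among all contigs of the female library, at 7683 FPKM, and 27th in egg, at 3202 FPKM. GAZX01030287 (2688 nt), the last of the 6, had 3650 CPM in egg, 3495 in copepodid, 2048 in chalimus, 3581 in female and 2464 in male.

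**Figure D2:**
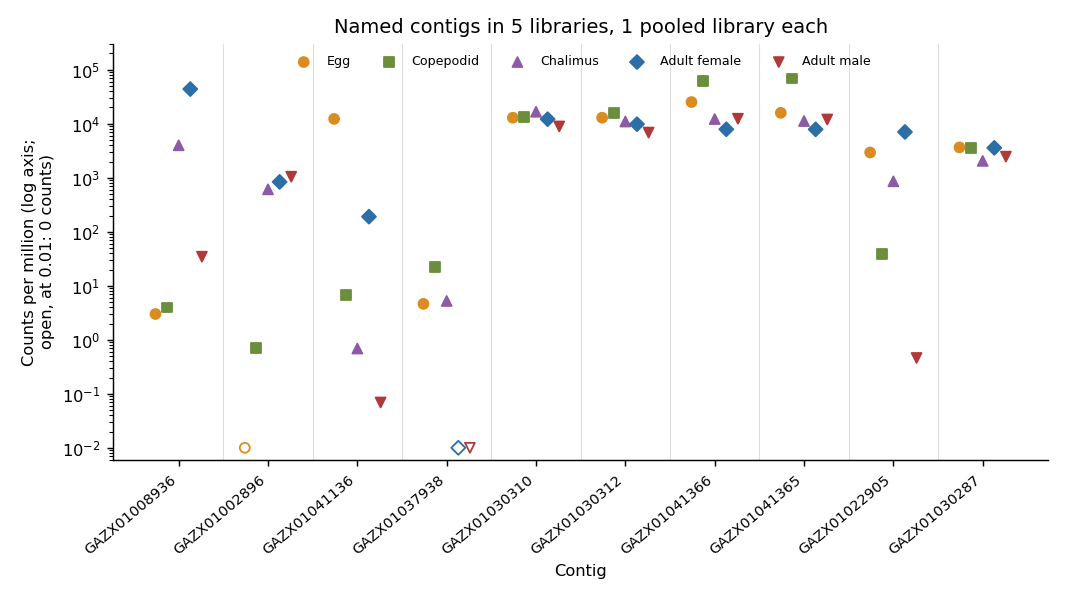
Level of the 10 named contigs in the 5 independent libraries, in CPM on a log axis, with 1 point per pooled library and 0 counts drawn as open markers at 0.01. The first 4 contigs are those named as lower or higher in egg and the other 6 are held. In CPM the highest library exceeds the lowest by 1.78-fold to 8.76-fold in 5 of those 6, and these spreads are wider on TMM-scaled counts. GAZX01022905 is far lower in male, at 60 counts.

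The share held by eggs was smallest among the most abundant female contigs. Of the female contigs at 1 to under 10 CPM, egg held 84.1% of 6636, and at 10 to under 100 CPM it held 84.6% of 7748. At 100 to under 1000 CPM it held 78.4% of 1619, and at 1000 CPM or more it held 48 of 83 (57.8%). Asked the other way round, females held 73.4% of the 8269 egg contigs at 1 to under 10 CPM, 84.1% of 8077, 85.4% of 1470 and, at 1000 CPM or more, 116 of 141 (82.3%). These bins were chosen after the data were seen. With total counts or DESeq2 size factors, egg again held 57.8% of the 83 contigs.

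**Figure D3:**
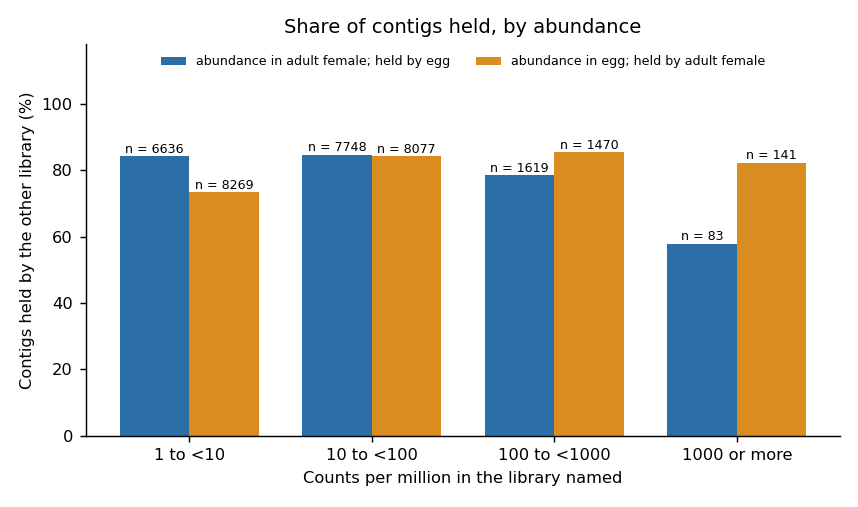
Share of contigs held by the other library (y axis, %) in bins of CPM (x axis), for female contigs in egg (blue) and for egg contigs in adult female (orange), with the number of contigs above each bar. The blue bars are 84.1% in the lowest bin and 57.8% in the highest, and the orange bars are 73.4% and 82.3%.

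The other libraries give a scale for these shares, with the female library common to all 4 comparisons. Of the 1702 abundant female contigs, chalimus held 84.2%, egg 77.4%, male 76.3% and copepodid 68.0%. The copepodid share was 56.1% with total counts. The order of egg and male depended on the scaling, since DESeq2 size factors gave 76.3% for egg and 78.3% for male. At 1000 CPM or more in female, chalimus held 62 of the 83, male 57, egg 48 and copepodid 46. Under 1 CPM were 5 of the 1702 in chalimus, 88 in egg, 95 in male and 122 in copepodid.

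The 384 abundant female contigs lower in egg took 29.5% of the female library and 0.959% of the egg library. Their median level was 225 CPM in female, 69.0 in chalimus, 37.8 in male, 9.79 in egg and 5.58 in copepodid. Egg still had 1000 or more counts for 207 of them, 50 to under 1000 counts for 104, 4 to 49 for 54, 1 to 3 for 11 and 0 for 8. Under 1% of the female CPM were 110 of the 384, and under 0.1% were 64. Whether fewer cells with a transcript or less of it per cell lies behind a low level cannot be told apart in pooled whole animals.

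The 10 most abundant of these contigs carried much of that share. They took 14.8% of the female counts, from 5369 to 43896 CPM each, and 0.0200% of the egg counts. In egg they had between 23 and 11536 counts, with a median of 88.5. All 10 had 100 CPM or more in chalimus, 466 to 4652 CPM. In male, 4 of the 10 had 100 CPM or more and 4 were under 1 CPM, so the group was mixed with respect to the sexes.

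GAZX01008936 (5872 nt) led the contigs lower in egg and was the most abundant contig of the female library. It had 6559259 counts in female, 463487 in chalimus, 4503 in male, 362 in egg and 310 in copepodid. The FPKM was 7470 in female and 0.510 in egg. The female level was 17770-fold the egg level (interval 16031 to 19753). Per length it ranked 4th in female, just behind GAZX01022905, which eggs held. Its count in the adult file equalled female plus male exactly.

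The 384 contigs were divided by their level in male. In each group the egg, female and male levels follow from how it was chosen, and the chalimus and copepodid levels do not. In 157 contigs male, too, had 100 CPM or more. Their median was 233 CPM in chalimus and 13.2 CPM in copepodid, beside 373 in male, 255 in female and 5.47 in egg. In 84 contigs male was under 1 CPM, with medians of 22.6 CPM in chalimus and 1.01 in copepodid, beside 241 in female, 5.52 in egg and 0.131 in male. The other 143 contigs lay between, with medians of 171 CPM in female, 42.6 in chalimus, 20.4 in egg, 15.1 in male and 7.07 in copepodid. The 157 contigs took 9.84% of the counts in female and 15.6% in male, the 143 took 12.8% and 0.363%, and the 84 took 6.83% and 0.00173%. No contig of the 384 was under 1 CPM in chalimus.

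**Figure D4:**
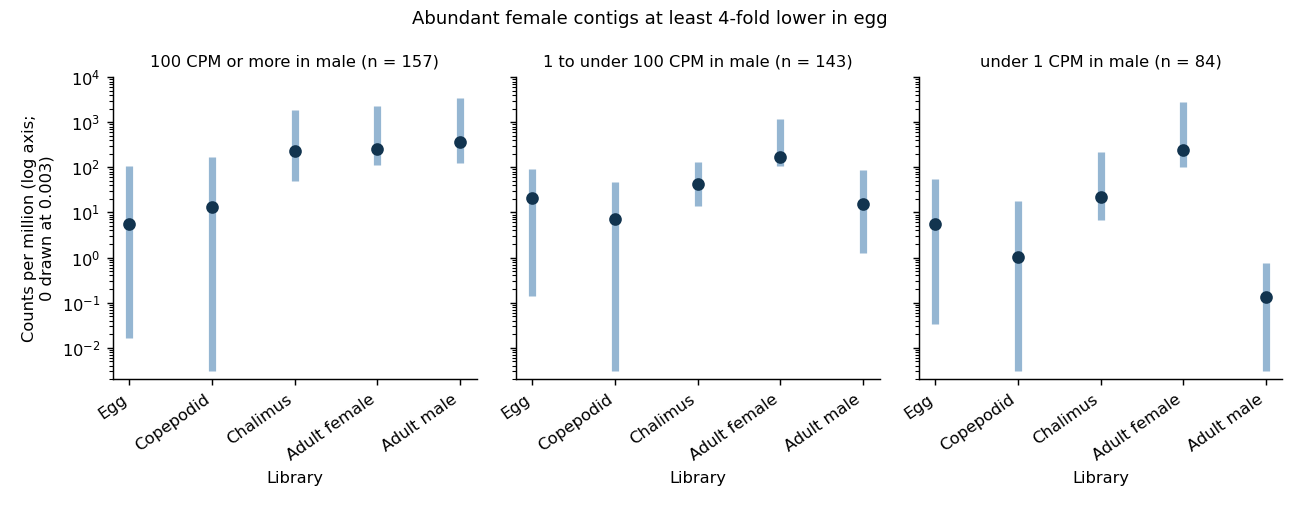
Level of the 384 abundant female contigs lower in egg in each library (x axis), in CPM on a log axis, divided by their level in adult male into 157, 143 and 84 contigs. Points are medians over contigs and bars run from the 5th to the 95th percentile over contigs, with 0 drawn at 0.003; the egg, female and male levels follow from the choice of contigs, and the median in chalimus is 233 CPM in the first panel and 22.6 CPM in the last.

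Few contigs had no counts at all in egg. A count of 0 allows up to 3 counts (the one-sided 95% limit), or 0.0249 CPM in egg and 0.0201 CPM in female, and folds against 0 counts below are lower bounds at that limit. There were 103 contigs with 50 or more female counts and 0 egg counts, 0.455% of those compared, and they took 0.370% of the female counts. Of the 103, 8 were abundant in female, and 19 abundant female contigs had 3 or fewer egg counts. The 103 contigs were short, with a median of 692 nt against 1488 nt for all contigs compared. Copepodid had 0 counts for 91 of the 103 (88.3%), beside 16.4% of all contigs compared. Chalimus had 50 or more counts for 78 of the 103 (75.7%, beside 87.9% of all) and male for 74 (71.8%, beside 81.6% of all). The copepodid table is less complete than the others, since 1.08% of the total behind its FPKM is not in it, so a 0 there means 0 in the table.

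GAZX01002896 (447 nt) was the most abundant of the 103. It had 0 counts in egg and 55 in copepodid, against 70896 in chalimus, 125262 in female and 136320 in male. That is 609 CPM in chalimus, 838 in female and 1047 in male, so male and chalimus had it too. It was at least 33720-fold higher in female than in egg, with 3 counts taken for the egg library and the lowest of 3 scalings. Of the 10 most abundant contigs with no egg counts, 5 had 100 CPM or more in male and 3 were under 1 CPM there.

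The lowest egg count relative to female among contigs that eggs did have was 26, for a contig with 6072564 female counts. In CPM the egg level was 0.000530% of the female level.

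The 4593 contigs higher in egg (20.3% of those compared) had a median of 4.17 CPM in egg and 0.294 CPM in female. Over all contigs compared the medians were 6.67 and 5.40 CPM. Abundant in egg were 240 of the 4593 (5.23%), beside 7.12% of all contigs compared. Their median length was 1106 nt, against 1630 nt for the contigs within 4-fold and 1416 nt for those lower in egg. Their share of counts in the libraries that had no part in choosing them was 20.6% in copepodid, 20.7% in chalimus and 15.0% in male. Much of it lay in 69 contigs at 100 CPM or more in both egg and male, with 9.74%, 8.10% and 10.8%. In male 60.2% of the 4593 were under 1 CPM, beside 29.2% of all contigs compared. On TMM-scaled counts egg was the highest library for 2207 of the 4593 (48.1%, beside 21.3% of all contigs compared). Highest was copepodid for 1572 (34.2%, beside 20.2%), chalimus for 572 (12.5%, beside 9.65%) and male for 242 (5.27%, beside 19.3%). The choice of contigs favours egg here and keeps female from being the highest.

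**Figure D5:**
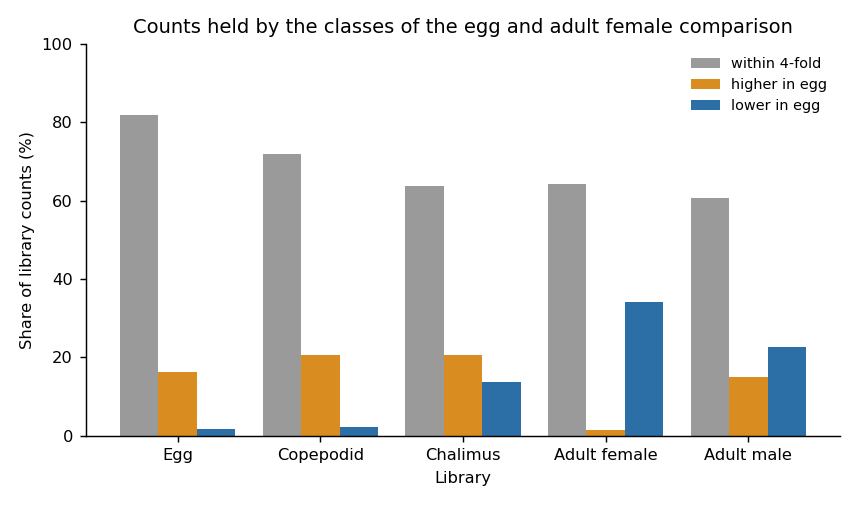
Share of each library's counts (y axis, %) taken by the contigs within 4-fold (grey), higher in egg (orange) and lower in egg (blue), for the 5 independent libraries. The classes were chosen on egg and female; in the other libraries, contigs higher in egg take between 15.0% and 20.7%, and contigs lower in egg take 22.7% in male, 13.7% in chalimus and 2.13% in copepodid.

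Among the 240 abundant egg contigs that were lower in female, medians were 199 CPM in egg, 102 in copepodid, 62.2 in chalimus, 21.0 in male and 13.8 in female. Copepodid had 100 CPM or more for 121 of them and under 1 CPM for 6. Males had 100 CPM or more for 69 contigs, with medians of 750 CPM in male, 667 in copepodid, 560 in chalimus, 299 in egg and 37.1 in female. The high male and the low female level of those 69 follow from the choice, and the copepodid and chalimus levels do not. Males had under 1 CPM for 59 contigs, with medians of 212 CPM in egg, 68.4 in copepodid, 4.46 in female, 1.07 in chalimus and 0.131 in male. These 59 took 3.46% of the library in egg and 1.24% in copepodid, against 0.370% in chalimus and 0.0855% in female.

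GAZX01041136 (2025 nt) had the most egg counts among the contigs higher in egg, and the 5th most of all contigs in that library. It had 1483490 counts in egg, 28475 in female, 536 in copepodid, 80 in chalimus and 9 in male. In CPM that is 12293 in egg, 191 in female, 6.84 in copepodid, 0.688 in chalimus and 0.0691 in male. The egg level was 53.1-fold the female level (interval 52.5 to 53.8). Per length it also ranked 5th in egg, at 6062 FPKM. Egg and female were the only libraries with 100 CPM or more of it, and it was far lower in copepodid, the next stage sampled.

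Females lacked none of the abundant egg contigs. Of the 1611 contigs at 100 CPM or more in egg, 1371 (85.1%) were held by female and 240 (14.9%) were at least 4-fold lower in female, beside 20.3% of all contigs compared. The 1611 were chosen at a high egg level, which favours contigs lower in female. The lowest female count among the 1611 was 54, whereas 5 of them had 0 counts in copepodid, 3 in chalimus and 10 in male. Under 1 CPM were 6 of the 1611 in female, 17 in copepodid, 34 in chalimus and 71 in male. The lowest female level was 0.142% of the egg level in CPM, for a contig with 32332 egg counts and 57 female counts. By contrast, 64 of the 1702 abundant female contigs were under 0.1% of the female level in egg.

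With 50 or more egg counts and 0 female counts there were 70 contigs, 0.309% of those compared, and none was abundant in egg. They were short, with a median of 476 nt, and 56 of the 70 were under 1 CPM in egg. GAZX01037938 (340 nt) had the most egg counts of them, 558 (4.62 CPM). It had 1737 counts in copepodid, 608 in chalimus and 0 in female and male. It was at least 172-fold higher in egg than in female, with 3 counts taken for the female library and the lowest of 3 scalings. Male had 50 or more counts for 1 of the 70 contigs (1.43%, beside 81.6% of all contigs compared), chalimus for 16 (22.9%, beside 87.9%) and copepodid for 25 (35.7%, beside 68.8%). These shares are not matched for level, since the 70 had a median of 0.634 CPM in egg and all contigs compared 6.67.

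Both lists of abundant contigs had 983 in common, 57.8% of the 1702 in female and 61.0% of the 1611 in egg. Contigs with consecutive identifiers tended to share a class. Of the 3278 contigs higher in egg whose next identifier was also compared, 47.6% were followed by another contig higher in egg, beside 20.3% over all contigs. Among 2413 contigs lower in egg, 36.8% were followed by another lower in egg, beside 13.5% over all contigs. The sources used here do not say whether such neighbours are pieces or variants of 1 transcript, so numbers of contigs are not numbers of genes.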

How the data were processed

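Each deposited file gives a whole-number count and an FPKM per contig. The deposited counts are raw whole numbers, per the file headers. The authors' FPKM divide each count by contig length and by the library's total. How the contigs were assembled, and which aligner and counter were used, is not given in the sources used here, nor is how reads matching several contigs were counted. Contig lengths were recovered by dividing counts by FPKM, which gave whole numbers within 0.05 nt for 100% of the 279 to 454 contigs per file above 300 FPKM. TMM factors over the 6 files came from edgeR 4.0.16 (R 4.3.3), and 0.5 counts per library, scaled to its size, were added before log2 ratios. DESeq2 1.42.0 size factors and total counts were alternatives. No count model was fitted, since each group is 1 library. Shares of a library are exact to 0.0111 percentage points or better (Wilson 95% interval), for counting error.

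Identifiers were named by a rule: the most abundant contig lower in egg, higher in egg, without egg counts and without female counts, and the 6 most abundant female contigs within 4-fold. The contigs compared, the classes and the limits were chosen with earlier results of these data known.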

Additional observations from a re-analysis of the deposited data

How the results depend on the processing

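No paired analysis was possible because each group has 1 library. Of 50 planned recomputed counts, 31 stayed within 1.5 times the value reported. Those 31 include the counts with TMM over egg and female alone, which could not differ. With a 2-fold limit 7241 contigs were higher and 6295 lower in egg, and 672 abundant female contigs were lower; with an 8-fold limit 2790 were higher and 1782 lower. With abundance set at 30 CPM, 4681 female contigs were held and 970 were lower in egg (82.8% held), and at 300 CPM 261 were held and 144 lower (64.4% held). Ranked by FPKM, 73.7% of as many female contigs were held. Contigs with no egg counts numbered 269 at 10 or more female counts, 58 at 200 or more, 278 when 3 or fewer egg counts were allowed and 67 among contigs of 500 nt or more. Contigs with no female counts numbered 272, 6, 345 and 32 at the same settings. Among the 14248 contigs whose adult count lay within 1% or 3 counts of female plus male, 2993 were higher (21.0%) and 1869 lower (13.1%) in egg, so the numbers are smaller because fewer contigs were compared. Of the differing contigs 60.1% were higher in egg with TMM, against 67.2% (total counts) and 56.2% (DESeq2). TMM over egg and female alone gave the same 4593 and 3052. It left the ratio of the egg to the female scaling unchanged, so these counts could not differ and are no separate check. GAZX01030310 and GAZX01030287 were higher in egg with total counts (log2 0.09 and 0.03) and lower with TMM (-0.19 and -0.25), and GAZX01030312 was higher with TMM (0.12) and lower with DESeq2 size factors (-0.02).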
